A study of Mus musculus with 24 samples.

Results

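Expression of 9 transcription factor genes of the Sox family was measured in cells sorted from the adult hippocampus after deletion of the Notch receptor gene Notch2. The genes were Sox1, Sox2, Sox3, Sox4, Sox5, Sox6, Sox9, Sox11 and Sox21, picked by symbol as 9 of the 48321 gene symbols counted. All 9 had reads and all 9 passed the filter on low counts. RNA came from adult C57BL/6 mice given tamoxifen for 5 days and killed after 1 day of chase. The 3 conditional knockout (CKO) pools carried Hes5::CreERT2, Notch2 flox/flox and Rosa26R-CAG::GFP, and the 3 wild-type (WT) pools carried the same driver and reporter with Notch2 wt/wt. GFP-positive cells were sorted in both, so every pool holds cells in which Cre, driven from the Notch target Hes5, had acted. The cells of a pool came from several animals, and the labels do not say whether an animal contributed to more than 1 pool. Each pool was sequenced as 2 Smart-Seq2 libraries, giving 40366579 to 53984963 reads in genes per pool, so that 1 read corresponds to 0.0175 to 0.0265 CPM (counts scaled to a common library size).

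Sox proteins bind DNA through an HMG box, a domain that bends the helix, and are sorted into groups by the similarity of that box. Sox1, Sox2 and Sox3 form group B1 and keep neural progenitors undifferentiated, while Sox21, of group B2, counteracts them. Sox4 and Sox11 form group C and act in committed progenitors and newborn neurons, Sox5 and Sox6 form group D and lack a transactivation domain of their own, and Sox9, of group E, acts in radial glia and astrocytes. In the adult dentate gyrus Sox2 marks stem cells and astrocytes, and Sox11 marks the neuroblasts that arise from them.

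Of the 9 genes, Sox11 was the one whose pools did not overlap between genotypes. It was higher in every CKO pool than in any WT pool, by 1.96-fold (95% interval 1.19 to 3.24). The other 8 overlapped. Sox2, the stem cell factor, stood at 0.872-fold (0.496 to 1.53) and Sox9, the glial factor, at 1.19-fold (0.703 to 2.03). None of the 9 passed an adjusted p under 0.05 in edgeR's quasi-likelihood test, against 0.0% (0 of 21477) of all genes tested. At an unadjusted p under 0.05 there was 1 of 9 in edgeR, higher in CKO, beside 5.91% of all genes (3.01% higher and 2.9% lower). DESeq2 called 0 of the 9, against 0.601% of all genes (0.391% higher in CKO), and had 1 of 9 at an unadjusted p under 0.05, beside 9.33% of all genes. Pools without overlap that were higher in CKO were 1 of 9, beside 7.67% of all genes, and 0 of 9 were lower, beside 8.17%, or 15.8% in either direction. Log2 fold changes were above 0 for 7 of 9 genes with a median of 0.22, beside 47.2% of all genes above 0 and a median of -0.06. These 9 genes share pools, and 6 of the 7 above 0 had intervals that included 0.

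**Figure D1:**
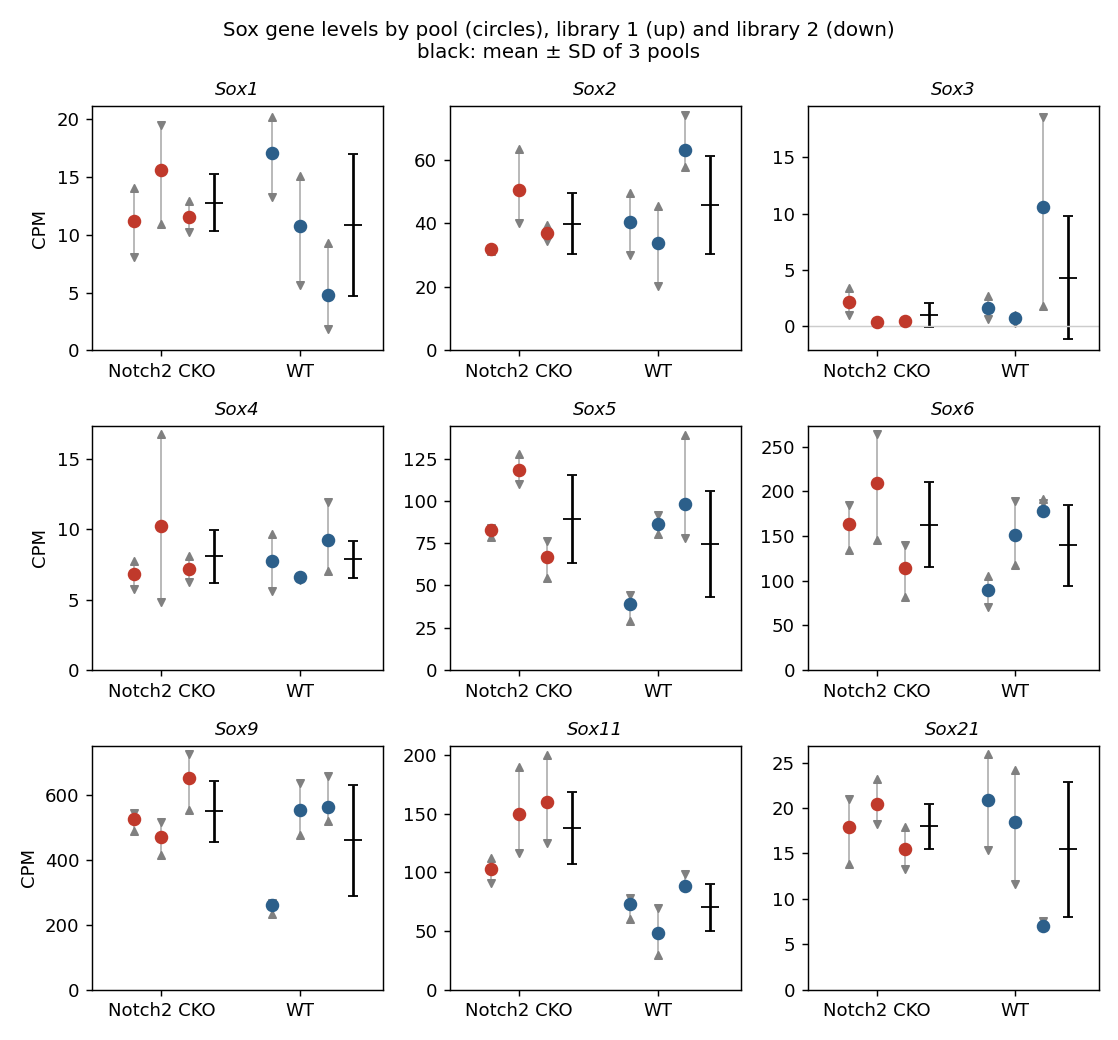
Level of each of the 9 Sox genes in CPM, with 1 circle per pool, Notch2 CKO pools at the left and WT pools at the right. Triangles are library 1 (up) and library 2 (down) of the same pool, and black bars are mean ± SD over 3 pools. Sox11 is the panel in which all 3 CKO circles, at 103 to 160.2 CPM, sit above all 3 WT circles, at 48.7 to 88.6 CPM.

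Notch2 itself, the gene deleted, stood at 65.3, 116 and 121 CPM in CKO pools 1 to 3 and at 99.3, 146 and 303 CPM in WT pools 1 to 3. The genotypes overlapped, and the log2 fold change was -0.86 (SE 0.45, edgeR adjusted p = 0.790), or -0.29 without WT pool 3. The level of Notch2 therefore does not serve as a check of the labels. The pools carry the tags 19K, 4K and 9K in CKO and 20K, 12K and 2K in WT, in the order of their numbers. The labels do not say what the tags count, and WT pool 3 has the smallest. A count per gene can also take in reads from exons that remain after recombination, and whether it did so here was not tested. The sorted cells were rich in mature astrocyte markers, whose 6 genes summed to 3895 to 5741 CPM in CKO pools and to 3879 to 4780.2 CPM in WT pools. Oligodendrocyte markers summed to 3065 to 5345 CPM in CKO pools and to 2303 to 6141 CPM in WT pools. Radial glia-like stem cell markers summed to 1274 to 1573 CPM in CKO pools and 1313 to 2089.6 CPM in WT pools, and within that list Nes, the intermediate filament gene of neural stem cells, had a mean of only 4.29 CPM in CKO and 2.96 CPM in WT pools. The levels below therefore belong to the sorted mixture, and in such bulk samples a change in the number of cells of a type cannot be told apart from a change in RNA per cell. Among the stem cell markers, Hopx stood at 25.8, 35.6 and 37.4 CPM in CKO pools, against 45.9, 37.9 and 58.3 CPM in WT pools. Its CKO pools lay below its WT pools, as for 8.17% of all genes (log2 fold change -0.53, SE 0.31, edgeR adjusted p = 0.794). Thrsp overlapped, with a log2 fold change of -0.32 that was 0.14 without WT pool 1. In that list 3 genes were above 0 and 3 below, and 0 passed the adjusted test.

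Per kilobase of exon, the scale on which levels of different genes can be compared, Sox9 was the most abundant of the 9 genes. It averaged 133 ± 22.6 CPM per kilobase in CKO pools and 111 ± 41.4 in WT pools (SD, n = 3 pools each). Sox2 came next at 19.4 ± 4.68 in CKO and 22.2 ± 7.47 in WT pools, and the ranges of Sox9 and Sox2 over the 6 pools did not overlap. Sox11 followed at 16.6 ± 3.65 in CKO and 8.44 ± 2.42 in WT pools, and Sox6 at 10.97 ± 3.203 in CKO and 9.43 ± 3.06 in WT pools. Sox5 stood at 6.21 and 5.19 CPM per kilobase in CKO and WT pools, Sox21 at 4.73 and 4.07, Sox1 at 2.64 and 2.25, Sox4 at 1.69 and 1.64 and Sox3 at 0.456 and 2.07. Below Sox9, every neighbour in this order overlapped the next in range, though Sox6 exceeded Sox5 and Sox21 exceeded Sox1 in each of the 6 pools. The exon length used here joins the exons of all transcripts, which gives Sox5 14376 bases and Sox6 14832 bases. Levels per kilobase depend on that length, and which transcripts were present was not tested.

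Sox4 and Sox21 may be undercounted. In GENCODE M21, 2616 of the 4795 exonic bases of Sox4 (54.6%) are shared with Gm26735, a long noncoding RNA on the opposite strand, and the row of Gm26735 held 0 reads in all 6 pools. The libraries do not mark strand, and reads in a shared stretch can be set aside as ambiguous. Over the 2179 bases that Sox4 shares with no gene counted here, its level would be 3.71 CPM per kilobase in CKO and 3.60 in WT pools. Sox21 shares 713 of 3799 exonic bases (18.8%) with the noncoding Gm4675. Smaller stretches are shared by Sox5, with 1330 of 14376 bases (9.25%) in the antisense Sox5os1, and by Sox1, with 86 of 4832 bases (1.78%) in the microRNA gene Gm25239. How the submitters' counting treated such reads is not given in the sources used here.

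**Figure D2:**
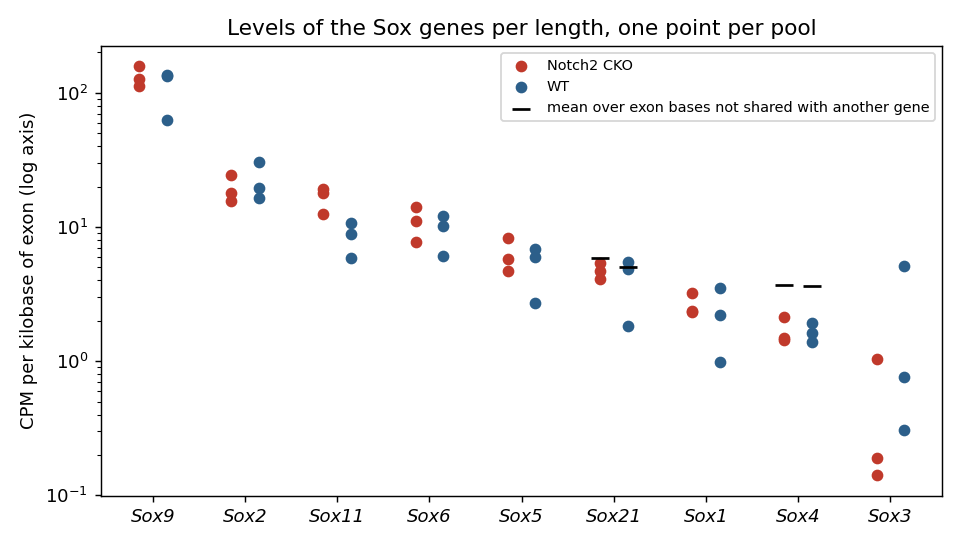
Level per kilobase of exon of the 9 Sox genes on a log axis, ordered by the mean of 6 pools, with 1 point per pool (Notch2 CKO left of WT). Black dashes give, for Sox21 and Sox4, the genotype mean over the exon bases not shared with another gene, which places Sox4 at 3.71 (CKO) and 3.60 (WT) CPM per kilobase in place of 1.69 and 1.64.

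Sox2 (chromosome 3, 34650405 to 34652461, plus strand, GRCm38, a single exon) keeps stem cells self-renewing. It had 32.0, 50.6 and 36.9 CPM in CKO pools 1, 2 and 3, against 40.2, 33.8 and 63.1 CPM in WT pools 1, 2 and 3. The genotypes overlapped, with the highest value in WT pool 3 and the lowest in CKO pool 1. Means were 39.8 ± 9.63 CPM in CKO and 45.7 ± 15.4 CPM in WT pools (SD, n = 3 each). The log2 fold change was -0.20 (SE 0.35, 95% interval -1.01 to 0.61, edgeR adjusted p = 0.898). Without WT pool 3 its sign turned, to 0.10. Within library 1 it was -0.17 and within library 2 -0.22.

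Sox2 lies in an intron of Sox2ot, a noncoding transcript of the same strand with which it shares no exonic base. Sox2ot was at 106, 110.4 and 124 CPM in CKO pools and at 48.3, 106 and 79.6 CPM in WT pools. The CKO pools lay above the WT pools, with almost no gap between CKO pool 1 (105.58 CPM) and WT pool 2 (105.56 CPM). Its log2 fold change was 0.54 (SE 0.31, edgeR adjusted p = 0.794), of opposite sign to that of Sox2, and 0.16 with WT pool 3 taken from library 1 alone.

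Sox1 (chromosome 8, 12395295 to 12400126, plus strand), a close relative of Sox2 found in early neural progenitors, had 11.1, 15.6 and 11.5 CPM in CKO pools and 17.1, 10.8 and 4.77 CPM in WT pools. The CKO values fell inside the range of the WT pools. The log2 fold change was 0.23 (SE 0.55, 95% interval -1.07 to 1.53, edgeR adjusted p = 0.929), which was -0.13 without WT pool 3. It was -0.22 in library 1 and 0.83 in library 2.

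Sox3 (chromosome X, 60891366 to 60893430, minus strand), the X-linked member of the group, was the least abundant of the 9 by its mean per kilobase. It had 2.14, 0.292 and 0.393 CPM in CKO pools, which are 122, 13 and 20 reads. It had 1.58, 0.637 and 10.6 CPM in WT pools, which are 80, 27 and 400 reads. WT pool 3 stood far above the rest, and 93.3% of its reads, 373 of 400, came from library 2. The log2 fold change of -2.17 (SE 1.32, 95% interval -5.27 to 0.92, edgeR adjusted p = 0.797) was -0.24 without WT pool 3 and -0.51 with that pool taken from library 1 alone. Within library 1 it was -0.38 and within library 2 -3.54.

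Sox21 (chromosome 14, 118233232 to 118237030, minus strand), the group B2 repressor, had 17.9, 20.5 and 15.5 CPM in CKO pools, against 20.9, 18.5 and 6.99 CPM in WT pools. WT pool 3 was the lowest and the other 5 pools lay between 15.5 and 20.9 CPM. The log2 fold change was 0.22 (SE 0.49, 95% interval -0.94 to 1.38, edgeR adjusted p = 0.924) and -0.14 without WT pool 3. Sox21 and Sox1 had the same highest pool, WT pool 1, and the same lowest, WT pool 3. Over the 12 libraries, which come from 6 pools, log2 CPM of Sox1 and Sox21 went together with Pearson r of 0.68 and Spearman rho of 0.67. The overlapping Gm4675 had 300, 149 and 248 reads in CKO pools and 54, 131 and 10 reads in WT pools. Its part in the count of Sox21 was not tested.

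Sox11 (chromosome 12, 27334264 to 27342574, minus strand, a single exon), which drives neuronal genes in neuroblasts, had 103, 149.6 and 160.2 CPM in CKO pools, against 73.2, 48.7 and 88.6 CPM in WT pools. All CKO pools were above all WT pools. Means were 138 ± 30.3 CPM in CKO and 70.2 ± 20.1 CPM in WT pools (SD, n = 3 each), and the log2 fold change was 0.97 (SE 0.31, 95% interval 0.25 to 1.69). Over all genes it missed the threshold, with an unadjusted p of 0.0152 and an edgeR adjusted p of 0.790. The exact two-sided permutation test over pools gave p = 0.1, the smallest that 3 against 3 pools allow. With 1 pool left out the log2 fold change lay between 0.82 and 1.17.

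The libraries gave Sox11 at unequal size. In library 1 it stood at 113, 189.8 and 199.5 CPM in CKO pools 1, 2 and 3 and at 60.2, 29.9 and 88.8 CPM in WT pools 1, 2 and 3, a log2 fold change of 1.5 with no overlap. In library 2 it stood at 90.9, 116 and 125 CPM in CKO pools and at 78.0, 69.9 and 98.3 CPM in WT pools. The genotypes overlapped there, and the log2 fold change was 0.42. Library 1 was the higher of the pair in all 3 CKO pools and the lower in all 3 WT pools. Of the 6 CKO libraries, 5 were above the highest of the 6 WT libraries. These are repeat libraries of 3 pools per genotype and do not count as 6 replicates.

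Sox4 (chromosome 13, 28948919 to 28953713, minus strand), which acts beside Sox11 in newborn neurons, had 6.84, 10.3 and 7.16 CPM in CKO pools, against 7.73, 6.61 and 9.22 CPM in WT pools. The ranges overlapped. Means were 8.08 ± 1.88 CPM in CKO and 7.85 ± 1.31 CPM in WT pools (SD, n = 3 each), and the log2 fold change was 0.04 (SE 0.47, 95% interval -1.05 to 1.14, edgeR adjusted p = 0.984). It was -0.16 without CKO pool 2, -0.02 without WT pool 2, 0.50 in library 1 and -0.51 in library 2. The interval of Sox4 takes in the log2 fold change of Sox11, and the difference between the genes was not tested.

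**Figure D3:**
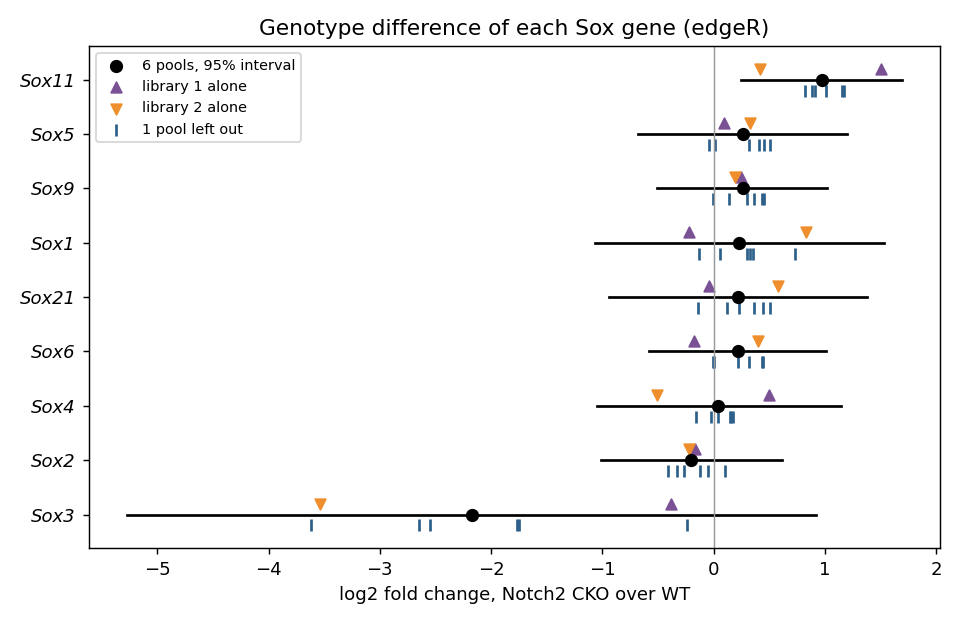
Log2 fold change of each Sox gene, Notch2 CKO over WT, from edgeR. Black points with bars are the fit on 6 pools with its 95% interval, triangles are library 1 (up) and library 2 (down) alone, and blue ticks are fits with 1 pool left out. The bar of Sox11, from 0.25 to 1.69, is the one that lies wholly on one side of 0, and none of the 9 genes passed the adjusted test.

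The ratio of Sox11 to Sox2 reads does not depend on how libraries are scaled. In CKO pools 1, 2 and 3 there were 3.22, 2.96 and 4.34 reads of Sox11 per read of Sox2, and in WT pools 1, 2 and 3 there were 1.82, 1.44 and 1.41. Sox11 has 8311 exonic bases and Sox2 2057, so a ratio above 1 does not place Sox11 above Sox2 in level. The genotypes did not overlap, with mean log2 ratios of 1.79 ± 0.291 in CKO and 0.63 ± 0.206 in WT pools (SD, n = 3 each). By library the ratio spanned 2.89 to 5.08 in CKO and 0.661 to 3.47 in WT pools, which did overlap. WT pool 2 gave 0.661 in library 1 and 3.47 in library 2, the widest gap within a pool. Summed over the groups, Sox4 and Sox11 had 2.43, 2.40 and 3.43 reads per read of Sox1, Sox2 and Sox3 in CKO pools, against 1.38, 1.22 and 1.25 in WT pools. Most of the group C reads were of Sox11, at 5882, 6669 and 8146 in CKO pools beside 390, 457 and 364 of Sox4. In WT pools they were 3702, 2063 and 3344 beside 391, 280 and 348, so the summed ratio largely follows Sox11. These ratios were formed with the values of the single genes known and are a description without a test. The ratio of Sox4 to Sox2 was 0.214, 0.203 and 0.194 in CKO pools and 0.192, 0.196 and 0.146 in WT pools, and that of Sox9 to Sox2 ran from 9.26 to 17.6 in CKO and from 6.49 to 16.3 in WT pools.

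**Figure D4:**
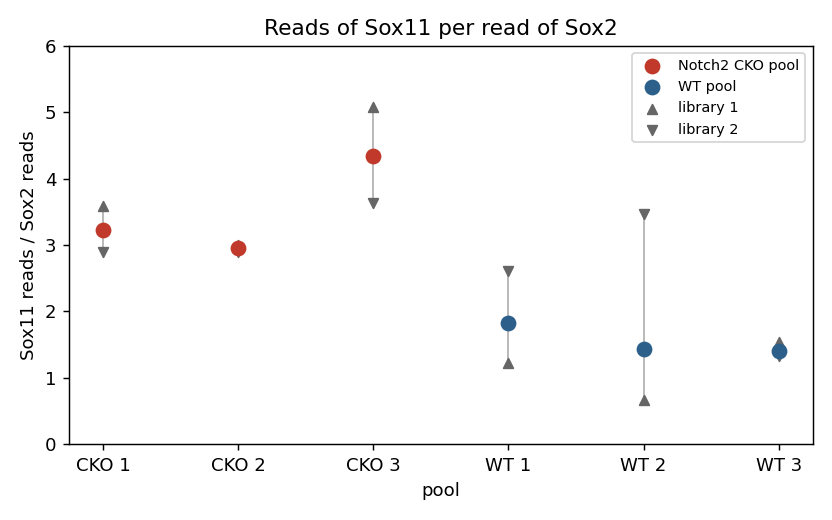
Reads of Sox11 per read of Sox2 in each pool (circles) and in its libraries (triangles, library 1 up and library 2 down), Notch2 CKO pools left of WT pools. The CKO circles lie between 2.96 and 4.34 and the WT circles between 1.41 and 1.82, while library 2 of WT pool 2 reaches 3.47. Reads are not divided by exon length.

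Sox11 and Sox2 are the genes between which this ratio moves, and Notch receptors act on genes through the DNA-binding factor Rbpj, so the 300 bases around their RefSeq starts (250 before, 50 after, GRCm38.p6, written 5′ to 3′ on the strand of the gene) are given here. The Sox2 window is chr3:34649745-34650044 on the plus strand and the Sox11 window chr12:27342669-27342968 on the minus strand. Both windows lie wholly upstream of the GENCODE M21 spans given above for these genes, because the RefSeq starts differ from those of GENCODE. Capitals mark the Sox core letters ACAAAG.
Sox2: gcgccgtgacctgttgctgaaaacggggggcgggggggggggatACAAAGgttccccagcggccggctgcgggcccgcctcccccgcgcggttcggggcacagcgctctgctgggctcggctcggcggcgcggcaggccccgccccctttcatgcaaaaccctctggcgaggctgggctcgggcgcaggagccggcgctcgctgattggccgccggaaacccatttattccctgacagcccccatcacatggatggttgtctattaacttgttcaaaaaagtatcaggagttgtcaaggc
Sox11: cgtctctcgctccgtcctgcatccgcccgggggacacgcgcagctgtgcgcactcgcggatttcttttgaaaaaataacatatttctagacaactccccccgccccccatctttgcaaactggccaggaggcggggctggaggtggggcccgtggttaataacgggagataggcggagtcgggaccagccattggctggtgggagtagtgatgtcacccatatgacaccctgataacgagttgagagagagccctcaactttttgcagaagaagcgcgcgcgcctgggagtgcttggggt
The 3 motifs were searched on both strands, and ACAAAG and ACAATG share their opening letters. The Rbpj letters GTGGGAA were in 0 of the 12 windows that the table holds for 7 of the 9 genes, and 6.39% of the 32817 windows of all genes hold them. ACAAAG was in 6 of the 12 windows, beside 18.7% of all, and ACAATG in 3 of 12, beside 12.6%. Sox6 alone has 6 of the 12 windows and 5 of the 6 with ACAAAG. Sox2 has ACAAAG at position 45 of its window, and Sox11 has none of the 3 motifs in its window.

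The group D genes and Sox9 overlapped between genotypes. Sox5 (chromosome 6, 143828425 to 144781977, minus strand), a partner factor in glial progenitors and in neurons, had 82.9, 118 and 67.0 CPM in CKO pools, against 39.2, 86.1 and 98.4 CPM in WT pools. The log2 fold change was 0.26 (SE 0.40, 95% interval -0.68 to 1.20, edgeR adjusted p = 0.882). It was -0.04 without WT pool 1. Sox6 (chromosome 7, 115470872 to 116038796, minus strand), its close relative, had 164, 209.7 and 115 CPM in CKO pools, against 89.6, 152 and 178 CPM in WT pools. The log2 fold change was 0.22 (SE 0.34, 95% interval -0.58 to 1.01, edgeR adjusted p = 0.882), or -0.01 without WT pool 1, with -0.18 in library 1 and 0.40 in library 2. Both genes were highest in CKO pool 2 and lowest in WT pool 1, and their log2 CPM went together over the 12 libraries (r of 0.72, rho of 0.80), the highest r among the 36 pairs of the 9 genes.

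Sox9 (chromosome 11, 112782224 to 112787760, plus strand), which sets glial fate and is kept by astrocytes, had 525, 468 and 651 CPM in CKO pools, against 261, 552 and 562 CPM in WT pools. WT pool 1 alone was low, and the other 5 pools lay between 468 and 651 CPM. Means were 548 ± 93.5 CPM in CKO and 459 ± 171 CPM in WT pools (SD, n = 3 each), and the log2 fold change was 0.26 (SE 0.32, 95% interval -0.51 to 1.02, edgeR adjusted p = 0.863). Without WT pool 1 it was -0.01. Sox9 was the best measured of the 9 genes, with 13210 to 33092 reads per pool, and its libraries gave 0.25 and 0.19. Library 2 had the higher value in all 6 pools, by 0.16 to 0.41 log2 units at the levels of the libraries, and no other gene of the 9 had the same library on top in every pool.

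Sox5, Sox6 and Sox9 were all lowest in WT pool 1. Excitatory neuron markers summed to 271 to 369 CPM in CKO pools and stood at 830.1, 299.8 and 402 CPM in WT pools 1, 2 and 3, so the same pool was the highest in them. In that list, 1 of 6 genes had a log2 fold change above 0, beside 47.2% of all genes, and none passed the adjusted test. WT pool 1 also had the smallest share of reads outside genes and the fewest genes with a read, 26502. CKO pool 2, where Sox5 and Sox6 were highest, had the largest share and the most genes with a read, 38187. The part of excitatory neurons, or of these differences between the libraries' reads, in the levels of the Sox genes was not tested.

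The remaining Sox genes place the 9 among other cell types. Sox10, the factor of the oligodendrocyte lineage, averaged 89.2 ± 34.6 CPM in CKO and 98.9 ± 14.5 CPM in WT pools, and Sox8, its group E relative, 151 ± 45.6 CPM in CKO and 192 ± 46.5 CPM in WT pools (SD, n = 3 each). Per kilobase Sox8 and Sox10 both stood above Sox2 by their means over 6 pools. Both were lowest in CKO pool 3, at 98.0 and 49.6 CPM. Oligodendrocyte precursor markers were also lowest in that pool, with a sum of 3059, 2365 and 1028 CPM in CKO pools 1, 2 and 3 and of 1560.2 to 2683 CPM in WT pools, and microglial markers highest, at 537 CPM against 153 to 211 CPM in the other CKO pools and 209 to 281 CPM in WT pools. Whether these cells set the levels was not tested. Sox7, an endothelial factor, was the one other Sox gene without overlap, beside 15.8% of all genes without overlap in either direction. It was at 3.23, 1.26 and 3.68 CPM in CKO pools and 5.89, 5.47 and 4.27 CPM in WT pools (log2 fold change -0.94, SE 0.64, edgeR adjusted p = 0.8005). Endothelial markers summed to 3.91 to 29.2 CPM in CKO and 18.5 to 73.0 CPM in WT pools, and their part in the level of Sox7 was not tested. Sox17 had at most 24 reads in a pool, and Sox14 and Sox30 at most 5. Log2 fold changes were -0.35 for Sox8 (-0.08 without CKO pool 3), -0.15 for Sox10 (-0.93 in library 1 and 0.34 in library 2), -0.40 for Sox12, -0.07 for Sox13, -2.23 for Sox15, -1.31 for Sox18 and 0.57 for Sox17. Without WT pool 2, Sox12 was at 0.17 and Sox13 at 0.35. Sox18 was at 0.56 in library 2, Sox17 at -0.20 without CKO pool 3 and Sox15 between -5.46 and -1.10 with 1 pool left out. The signs of Sox10, Sox12, Sox13, Sox17 and Sox18 thus turned with the setting. The 95% intervals of Sox7 (-2.44 to 0.57), Sox8 (-1.08 to 0.38) and Sox15 (-6.41 to 1.95) included 0, so their signs are not settled either. Sox15 had 20, 1 and 0 reads in CKO pools 1 to 3 and 63, 1 and 20 in WT pools 1 to 3. Of 10 such genes, 8 were tested, and 1 lay above 0 and 7 below, beside 47.2% of all genes above 0. None passed, against 0 of 21477 over all genes.

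Genes that work with the Sox factors were taken as lists. Of 15 partners and targets of group B1, 10 were above 0 and 5 below, beside 47.2% of all genes above 0. The median log2 fold change was 0.25 beside -0.06 for all genes, and 0 passed the adjusted test, against 0 of 21477. Gli3, a Hedgehog effector, was the 1 of the 15 genes with an unadjusted p under 0.05 in edgeR, beside 5.91% of all genes. It was also the 1 without overlap, beside 15.8% of all genes in either direction. It stood at 60.5, 49.7 and 53.0 CPM in CKO pools, against 26.8, 39.2 and 33.9 CPM in WT pools, with no overlap (log2 fold change 0.71, SE 0.27, edgeR adjusted p = 0.790, with 0.34 in library 1 and 0.87 in library 2). Hes5, a target of both Notch and Sox2, averaged 382 ± 19.7 CPM in CKO and 379 ± 133 CPM in WT pools, and Nr2e1, an orphan receptor that maintains stem cells, 62.3 ± 9.79 CPM in CKO and 34.9 ± 33.7 CPM in WT pools (SD, n = 3 each). Nr2e1 overlapped through WT pool 3, the highest of all 6 pools at 72.9 CPM, and its log2 fold change of 0.84 was 1.97 without that pool and 0.39 without WT pool 1. Hes5 stood between -0.23 and 0.25 with 1 pool left out.

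Neuroblast genes, among them targets of Sox11, lay on both sides of 0. Of 14, 5 were above 0 and 9 below, with a median of -0.32, beside 47.2% of all genes above 0 and a median of -0.06. In this list 0 passed, against 0 of 21477 over all genes. Dcx, a microtubule protein of migrating neuroblasts, stood at 38.8, 50.6 and 24.6 CPM in CKO pools, against 11.5, 32.0 and 10.8 CPM in WT pools. Its pools overlapped through WT pool 2 (log2 fold change 1.07, SE 0.54, edgeR adjusted p = 0.790, 1.82 without that pool, 0.80 without WT pool 3, and 1.47 and 0.81 in libraries 1 and 2). Stmn1, a tubulin-binding protein, averaged 119 ± 27.4 CPM in CKO and 189.96 ± 110 CPM in WT pools, where WT pool 1 alone had 311 CPM, and its log2 fold change of -0.68 was -0.11 without that pool. Tubb3, a neuronal tubulin and target of group C, averaged 32.2 ± 12 CPM in CKO and 58.4 ± 59.7 CPM in WT pools. WT pool 1 had 127 CPM of Tubb3, and the log2 fold change of -0.86 was 0.43 without that pool.

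Of 10 partners and targets of Sox9 in glia, 6 were above 0 and 4 below, with a median of 0.35, and 0 passed. Over all genes, 47.2% were above 0, the median was -0.06 and 0 of 21477 passed. Pools did not overlap for 1 of the 10 higher in CKO, beside 7.67% of all genes, and for 1 of the 10 lower, beside 8.17%. Nfib, a nuclear factor of glial and neuronal maturation, stood at 305, 355 and 377 CPM in CKO pools, against 138, 221 and 237 CPM in WT pools, with no overlap (log2 fold change 0.80, SE 0.26, edgeR adjusted p = 0.790, with 1.15 in library 1 and 0.48 in library 2). S100b, a calcium-binding protein of astrocytes, stood at 187, 203 and 171 CPM in CKO pools, against 298, 257 and 230.4 CPM in WT pools, likewise with no overlap (log2 fold change -0.49, SE 0.20, edgeR adjusted p = 0.790, with -0.65 in library 1 and -0.30 in library 2). Slc1a3, the glial glutamate transporter, averaged 8156 ± 1724 CPM in CKO and 5932 ± 2237 CPM in WT pools. Its log2 fold change was 0.46, and library 1 gave 0.81 where library 2 gave 0.10.

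Among the 9 genes, 6 of 36 pairs had r above 0.5 over the 12 libraries and 2 had r below -0.5, namely Sox1 with Sox9 (r of -0.55, rho of -0.73) and Sox1 with Sox3 (r of -0.55, rho of 0.03). Sox2 and Sox11 were nearly unrelated (r of 0.13). Of 7997 well expressed genes (mean log2 CPM no lower than 4), those most like Sox2 were Cib2 (r of 0.944, rho of 0.958), H2afy (0.880 and 0.895), Rexo2 (0.824 and 0.720), Cacybp (0.821 and 0.811) and Hopx (0.818 and 0.762). Those most like Sox11 were Amt (0.863 and 0.860), Il33 (0.857 and 0.804), Zfp367 (0.846 and 0.853), Trnt1 (0.835 and 0.902) and Tmem19 (0.834 and 0.650). They were selected for a high r among all those genes, and libraries of a pool share their cells, so these values are a description without a test.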

How the data were processed

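RNA of 6 pools of sorted cells was measured as 24 runs, 2 libraries per pool on 2 lanes each. The deposited files held raw read counts per gene symbol, which the authors made with Bowtie2 and HTSeq on GRCm38, per the submitters' processing notes. Their versions, the annotation and the strand and overlap modes are not given in the sources used here. The 5 summary lines that name no gene were left out, and reads outside genes made up 16.0% to 35.3% of reads per pool. Lanes agreed within sampling noise (chi-square over its degrees of freedom 0.986 to 1.01) and libraries of a pool did not (70.7 to 351). The 4 runs of a pool were summed as 1 replicate.

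CKO was set against WT with edgeR 4.0.16 under R 4.3.3 (filterByExpr, 21477 genes, TMM, robust quasi-likelihood F test, Benjamini-Hochberg threshold 0.05). CPM are at TMM-adjusted library sizes. SE and 95% intervals were computed from the F statistic of that fit, so an interval that excludes 0 restates its unadjusted p. The common biological coefficient of variation was 0.725. DESeq2 1.42.0, other scalings, no filter, single libraries, a replicate block and leaving out each pool were alternatives. Positions and exon lengths are GENCODE M21. The members and lists were chosen with earlier results of these data known. By the rule for named genes, all Sox genes were named. Of each list, the rule takes the members with an unadjusted p under 0.05 or else the 2 with the smallest p. It was applied here to the 3 lists of partners and targets and to the stem cell markers. The other marker lists were not named by gene. The rule allows any list gene. Hes5, Nr2e1, Nes, Tubb3 and Slc1a3 were picked from the lists after their values were seen. Sox2ot, Gm26735, Gm4675, Sox5os1 and Gm25239 overlap a member. P-values reflect only how these pools spread, which may be technical. Same-numbered pools of the genotypes were checked for pairing and not treated as pairs. Protein sequences were not used here.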

Additional observations from a re-analysis of the deposited data

How the results depend on the processing

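None of the 9 Sox genes passed the adjusted test under any of the 14 alternatives. DESeq2 called 129 genes in all where edgeR called 0, and 13 alternatives called 0. At an unadjusted p under 0.05, plain library totals gave 809 genes higher and 388 lower, beside 647 and 622 with TMM. Sox11 and Sox3 kept their sign in all 14 alternatives, Sox11 between 0.42 and 1.5 (adjusted p from 0.271 in DESeq2 to 0.993) and Sox3 between -3.62 and -0.24. With 1 pool left out, log2 fold changes ranged from -0.13 to 0.73 for Sox1, -0.41 to 0.10 for Sox2, -0.16 to 0.17 for Sox4, -0.04 to 0.51 for Sox5, -0.01 to 0.44 for Sox6, -0.01 to 0.45 for Sox9, -0.14 to 0.51 for Sox21, 0.82 to 1.17 for Sox11 and -3.62 to -0.24 for Sox3. Library 1 alone turned the sign of Sox1 (-0.22), Sox6 (-0.18) and Sox21 (-0.04), and library 2 alone that of Sox4 (-0.51). With WT pool 3 taken from library 1 alone, a setting chosen after seeing the data, Sox5 was at -0.01. The cause was not tested. Same-numbered pools share only a number (correlations of their deviations 0.0636, 0.0435 and -0.0249). With the replicate number as a block 0 genes were called, 889 had an unadjusted p under 0.05 beside 1269, and Sox11 was at 0.99 and Sox2 at -0.18. Depth limits Sox3 most, at 13 to 400 reads per pool.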
